A study of Mus musculus with 9 samples.

Results

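The mouse genes for chemokines and their receptors were followed through bulk RNA sequencing of labial mucosa, the lining of the lip. They were chosen by symbol alone: names of the Ccl, Cxcl, Ccr and Cxcr families followed by a digit, together with Xcl1, Xcr1, Cx3cl1, Cx3cr1 and Ackr1 to Ackr4. This gave 63 of the 55342 gene symbols in the files, 40 ligands and 23 receptors, with no threshold on expression. The biopsies came from mice whose 3 strains are labelled B6, Tac111 and Tac146 (3 libraries of each), and the mice of all 3 strains had been infected beforehand. The sources used here name neither the agent, nor the alleles behind the strain names, nor the animals' ages. By their labels, B6 libraries hold ILC1 (type 1 innate lymphoid cells) while Tac111 and Tac146 libraries hold T cells, so that strain and labelled cell type cannot be told apart in a comparison with B6. The labels also do not say that libraries of a strain came from separate animals, so p-values measure the spread between these libraries, which may be technical.

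Chemokines are small secreted proteins that guide leukocytes along gradients, and their receptors are G protein-coupled proteins of the leukocyte surface. Families are named by the spacing of conserved cysteines (CC, CXC, XC and CX3C), and some ligands share receptors while others pair with 1 receptor. Atypical receptors bind chemokines and remove or transport them without the usual G protein signal. In oral mucosa, epithelium, fibroblasts, vessels and resident myeloid cells make ligands, and lymphocytes, neutrophils and dendritic cells carry most of the receptors.

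The promoters of Cxcl9, Cxcl10, Ccl17 and Ccl22 are shown because these 4 ligands were lower in Tac111 than in both other strains and form pairs with a shared receptor, each pair within a short stretch of 1 chromosome. Each stretch is the 250 bases before the RefSeq gene start (GRCm38.p6), written 5′ to 3′ on the gene's strand, at chr5:92328080-92328329 and chr5:92348890-92349139 (both minus strand) for Cxcl9 and Cxcl10, and chr8:94810203-94810452 and chr8:94745434-94745683 (both plus strand) for Ccl17 and Ccl22. The Ccl22 window runs past the gene start of the GENCODE annotation used for positions, 94745590. Capitals mark matches on either strand to 3 motifs: the interferon gamma activated site (GAS, TTCNNNGAA), the core of the interferon-stimulated response element (ISRE, GAAANNGAA) and the NF-kappaB consensus.
Cxcl9: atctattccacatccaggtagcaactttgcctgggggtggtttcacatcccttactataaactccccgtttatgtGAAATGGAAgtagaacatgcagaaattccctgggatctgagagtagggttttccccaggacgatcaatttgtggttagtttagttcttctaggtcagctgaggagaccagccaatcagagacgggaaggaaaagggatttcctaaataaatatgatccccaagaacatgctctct
Cxcl10: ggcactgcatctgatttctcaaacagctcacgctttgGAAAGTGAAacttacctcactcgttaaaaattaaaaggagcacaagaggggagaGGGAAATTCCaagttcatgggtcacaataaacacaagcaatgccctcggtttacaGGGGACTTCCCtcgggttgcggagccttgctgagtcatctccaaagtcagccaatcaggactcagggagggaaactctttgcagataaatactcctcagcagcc
Ccl17: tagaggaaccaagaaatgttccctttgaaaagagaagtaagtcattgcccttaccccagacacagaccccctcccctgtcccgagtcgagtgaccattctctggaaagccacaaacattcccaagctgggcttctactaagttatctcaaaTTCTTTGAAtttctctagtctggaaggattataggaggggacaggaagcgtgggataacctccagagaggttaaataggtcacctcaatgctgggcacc
Ccl22: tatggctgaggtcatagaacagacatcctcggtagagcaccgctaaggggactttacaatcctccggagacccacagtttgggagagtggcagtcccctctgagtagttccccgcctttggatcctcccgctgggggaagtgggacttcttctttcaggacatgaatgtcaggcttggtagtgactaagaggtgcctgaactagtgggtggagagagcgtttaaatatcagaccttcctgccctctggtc
In Cxcl9 the capitals are an ISRE core starting 175 bases before the gene start. Cxcl10 holds an ISRE core 213 bases before its start, an NF-kappaB match 159 bases before it, and a pair of overlapping NF-kappaB matches from 104 bases before it. The Ccl17 capitals are a GAS match 99 bases before the start, and the Ccl22 window holds none of the 3 motifs. Of the 63 genes, 46 were in the RefSeq promoter table, among them 13 of the 16 that passed the edgeR test between strains in at least 1 comparison, whose counts are set beside the share over all genes with each comparison. GAS was present in 7.02% of all 32851 promoters of the table and in 4 of the 46 (Ccl17, Ccr1l1, Ccr6 and Cxcl14). The ISRE core was present in 7.13% of all promoters and in 8 of the 46, 3 of them genes that differed (Cxcl9, Cxcl10 and Ccr2). The NF-kappaB consensus was present in 7.25% of all promoters and in 11 of the 46, with Cxcl10 and Ccr1 among the genes that differed. A match describes letters and does not show that a factor binds there.

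Levels are in CPM, the usual scaling of counts to library size, or in CPM per kb of annotated exon where genes are compared with each other. Each log2 fold change comes with its standard error (SE). Total expected counts per library ran from 27192359 to 46456500. Transcripts of epithelium and muscle were abundant in all 9 libraries: a squamous epithelium list summed to 63090 to 103200 CPM and a skeletal muscle list to 16960 to 30850 CPM. The T cell list reached at most 29.8 CPM, and Cd3d, Cd3e, Cd3g, Cd8a and Cd8b1 had no count in Tac111, although those libraries are labelled T cells. Il2rg, a receptor chain shared by several interleukins, had 3 to 4 counts per Tac111 library, 145 to 216 in B6 and 131 to 242 in Tac146; it was named after its values were seen. Tac146 replicate 4 stood apart from its strain, with the highest neutrophil marker sum of all libraries (162.9 CPM, of which S100a8 and S100a9 made up 154.1) and the lowest sums for macrophages (192.5 CPM), mast cells (66.1 CPM) and skeletal muscle. In bulk tissue, fewer cells of a type and less RNA per cell cannot be told apart.

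The most abundant members were ligands that stroma, vessels and epithelium make without stimulation. All 63 genes together summed to 315.1 to 429.3 CPM per library, and Cxcl12, Ccl21a and Cxcl14 made up 47.4% of that sum. Per length, the highest mean level over the 9 libraries was that of Ccl21a, the ligand by which lymphatic vessels draw in dendritic cells and T cells, at 62.5 CPM per kb. Cxcl14, a ligand made by epithelium and fibroblasts, followed at 28.6 CPM per kb. The inflammatory ligands Ccl11 (eotaxin, which attracts eosinophils), Ccl8 and Ccl6 came next at 16.1, 15.5 and 10.8 CPM per kb. The other members of the first 12 were Ackr3 (8.56), Cxcl12 (7.70), Cxcl16 (4.30), Ccl9 (4.15), Ackr1 (3.60), Ccl27a (3.52) and Cx3cl1 (2.69), all in CPM per kb, so both atypical receptors in this group stood above every classical receptor. The highest classical receptor was Cxcr4, the receptor of Cxcl12, at 1.83 CPM per kb. Ccl21a and its near copy Ccl21b share 71.7% of the 50-base words of Ccl21b, so reads may be split between them.

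**Figure D1:**
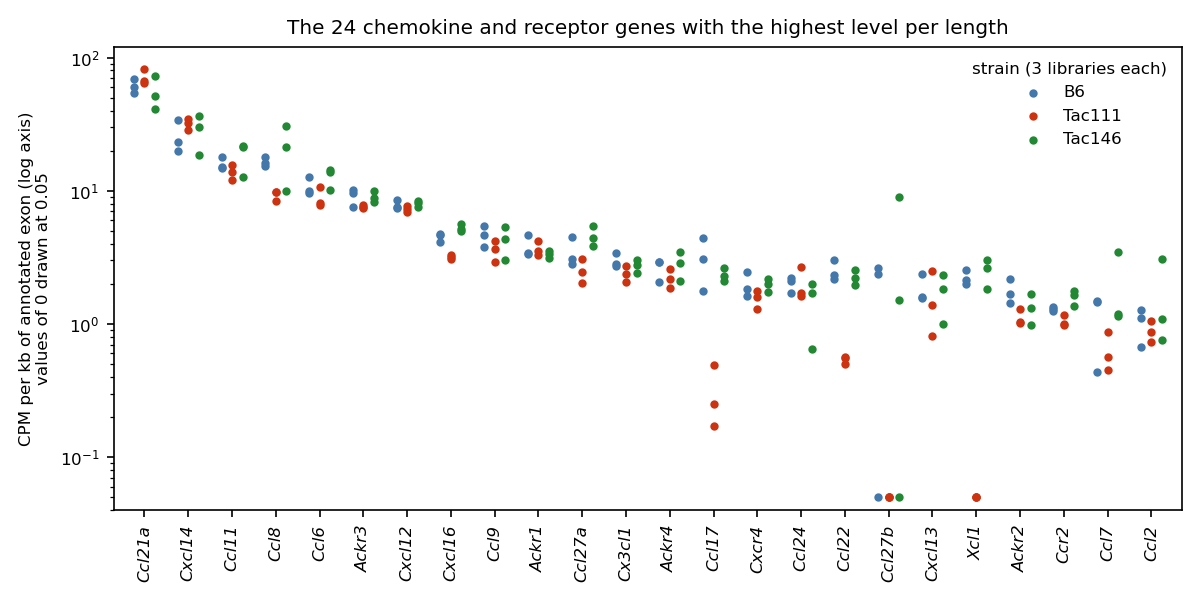
Level of the 24 chemokine and receptor genes with the highest mean CPM per kb of annotated exon (log axis), 1 point per library, 3 libraries per strain, with values of 0 drawn at 0.05. Ccl21a stands highest in every library, while the Tac111 points of Ccl17, Ccl22 and Xcl1 lie below those of B6 and Tac146.

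Among the abundant ligands the 3 strains overlapped. Ccl21a stood at 47.5, 52.1 and 60.3 CPM in the B6 libraries, 58.1, 56.5 and 71.5 in Tac111, and 62.9, 44.4 and 35.6 in Tac146. Cxcl12, the stromal ligand of Cxcr4 and Ackr3, ranged only from 56.8 to 69.5 CPM over the 9 libraries. Cxcl14 ranged from 34.0 to 66.9 CPM, with its lowest and highest value both in Tac146. None of the 3 passed the test in any comparison: the smallest edgeR adjusted p among them was 0.192 (Ccl21a, Tac111 against Tac146, log2 fold change 0.38, SE 0.19). Without Tac146 replicate 2, Ccl21a was higher in Tac111 than in Tac146 (log2 fold change 0.64, adjusted p = 0.0291 by edgeR). Over the 24 genes with a mean of at least 1 CPM in every strain, the median coefficient of variation between replicates was 15.8% in B6 against 13.9% in Tac111 and 22.0% in Tac146. The largest was that of Ccl2 in Tac146 (76.5%), and the smallest that of Ccl25 in Tac111 (1.23%).

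Tac111 against B6 asks how the first of the 2 Tac strains differs from the B6 mice. Of the 41 genes of the family that had enough counts to be tested, 10 were lower and 1 was higher in Tac111 by edgeR's quasi-likelihood test, at an adjusted p under 0.05. Over all 16523 genes tested, 2.8% were lower and 1.02% higher. The lower genes were the ligands Cxcl9, Cxcl10, Ccl17, Ccl22, Xcl1, Cxcl16 and Ccl5 and the receptors Cxcr6, Ccr7 and Ccr8, and the higher gene was Ccl28. The median log2 fold change was -0.46 over the 41 genes and 0.02 over all genes, and 35 of the 41 values were negative. DESeq2 called 14 of 47 members tested, where 6.72% of all its genes were called. Without a filter on low counts, edgeR called 14 of 59, against 3.7% of all genes. The count fell to 7 of 34 with a filter of 1 CPM, where 3.74% of all genes were called. It was 7 of 42 without B6 replicate 1, where 2.76% were.

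Tac111 against Tac146 compares both Tac strains, whose libraries carry the same cell label. In Tac111, 14 of the 41 genes were lower and 1 was higher, beside 6.27% lower and 2.62% higher over all genes (edgeR, adjusted p under 0.05). The 10 genes lower or higher in both comparisons of Tac111 were Ccl17, Ccl22, Ccl28, Ccr7, Ccr8, Cxcl9, Cxcl10, Cxcl16, Cxcr6 and Xcl1. The 2 comparisons share the Tac111 libraries, so this overlap adds no independent support. Ccl8, Ccl27a, Ccr1, Ccr2 and Cxcr2 passed only here, and Ccl5 only against B6, and the differences between the comparisons were not tested. The median log2 fold change was -0.60 over the 41 genes and 0.02 over all genes. With upper-quartile factors, the split over all genes moved from 433 higher and 1036 lower to 609 and 822, while 13 members were lower and 1 higher. DESeq2 called 18 of 43 members tested (15.2% of all its genes) and edgeR without a filter on low counts called 24 of 59 (7.86%). The count fell to 7 of 43 without Tac111 replicate 3, where 2.81% of all genes were called. It was 10 of 46 without Tac111 replicate 2 (2.87%) and 10 of 42 without Tac146 replicate 3 (2.97%). With only the 6 libraries compared it was 9 of 37 (3.92%), and without Tac146 replicate 4 it was 13 of 43 (5.24%).

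Tac146 against B6 gave no member past the threshold by edgeR, where 0.194% of all genes were higher and 0.109% lower. At an unadjusted p under 0.05, 5 of the 41 passed, beside 6.96% of all genes. DESeq2 called 1 of 56 members tested (0.574% of all its genes), and edgeR without a filter on low counts called 1 of 59 (0.469%). That 1 gene was Cxcl9 in both. The median log2 fold change was 0.03 over the 41 genes and 0.01 over all genes. The missing calls do not show that the 2 strains have equal levels.

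**Figure D2:**
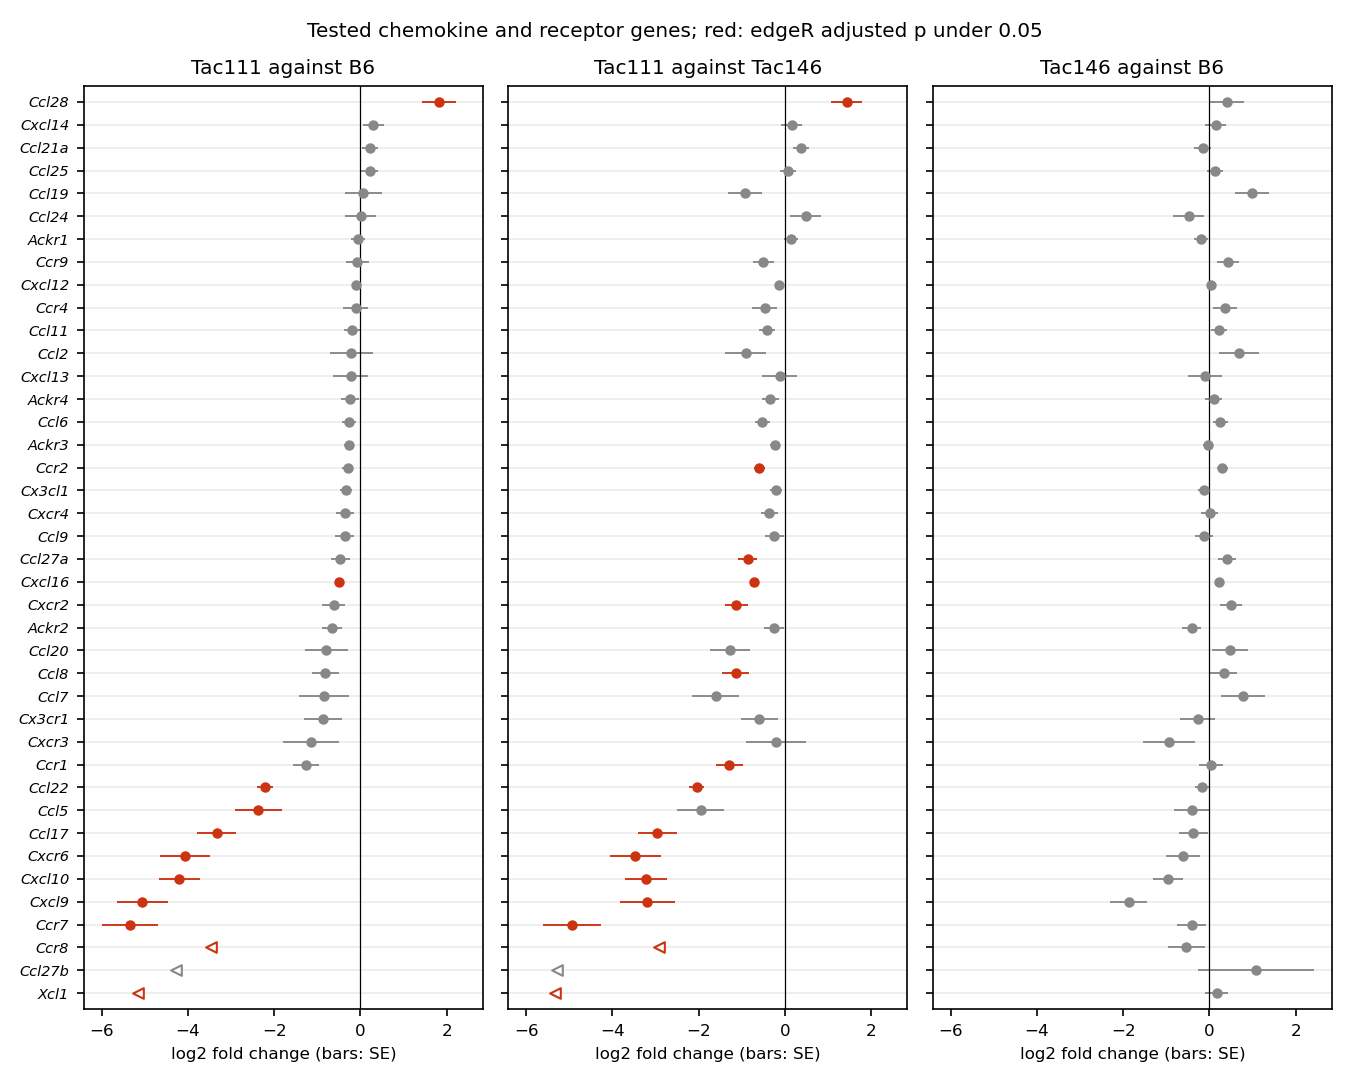
Log2 fold change with SE for 40 of the 41 tested genes in the 3 comparisons, with red for an edgeR adjusted p under 0.05. Open triangles mark genes without a count in Tac111, whose fall was computed with a floor of 3 counts over the group. Most values in both panels with Tac111 lie left of 0, Ccl28 lies right of it, and no point is red in Tac146 against B6.

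Cxcl9 and Cxcl10, interferon-induced ligands that draw activated T cells and natural killer (NK) cells through Cxcr3, were among the genes with the largest falls in Tac111. Cxcl9 (chr5:92321347-92328079) stood at 2.58, 4.59 and 7.09 CPM in B6 against 0.257, 0 and 0.145 in Tac111, and 1.24, 0.921 and 1.68 in Tac146. Its 3 strains did not overlap, with Tac146 between the other two. Against B6 it fell in Tac111 (log2 fold change -5.06, SE 0.60, adjusted p = 0.00124 by edgeR) and against Tac146 (-3.19, SE 0.64, adjusted p = 0.0177 by edgeR), the latter lost without Tac111 replicate 3 (adjusted p = 0.0754). In Tac146 against B6 its log2 fold change was -1.87 (SE 0.43, adjusted p = 0.205 by edgeR), and DESeq2 gave -1.89 (adjusted p = 0.00234). Cxcl10 (chr5:92346638-92348889) stood at 1.81, 3.76 and 4.71 CPM in B6 against 0.0641, 0.217 and 0.262 in Tac111, and 1.73, 1.44 and 2.01 in Tac146. Every Tac111 library lay below every other library, while B6 and Tac146 overlapped. The fall was -4.20 (SE 0.47, adjusted p = 0.000926 by edgeR) against B6 and -3.23 (SE 0.48, adjusted p = 0.00398 by edgeR) against Tac146. B6 replicate 1 had the lowest value of its strain for both ligands.

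Cxcl11, the remaining Cxcr3 ligand, lies in the same 44.1 kb of chromosome 5 and is annotated as a polymorphic pseudogene. It had 20 counts in B6 against 21 in Tac111 and 10 in Tac146 in all, too few to be tested, and 41.7% of its exons overlap a pseudogene on the other strand. The receptor Cxcr3 (chrX:101731535-101734269) stood at 0.716, 0.278 and 0.364 CPM in B6 against 0.0962, 0.0361 and 0.465 in Tac111, and 0.265, 0.215 and 0.242 in Tac146. The strains overlapped through Tac111 replicate 3, and no comparison passed (smallest edgeR adjusted p 0.32). Ifng, which encodes interferon gamma, had no count in Tac111 and at most 3 counts in any other library.

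Xcl1 and Cxcr6, which are made or carried by NK cells, ILC1 and CD8 T cells, had few or no counts in Tac111. Xcl1 (chr1:164931644-164935527), the ligand that draws cross-presenting dendritic cells through Xcr1, stood at 1.05, 1.11 and 1.32 CPM in B6 and 0.951, 1.38 and 1.59 in Tac146. It had 0 counts in all Tac111 libraries, against 116 in B6 and 160 in Tac146. With 3 counts over the group as floor, it was 35.8-fold lower than in B6 (counting interval from 28.6, adjusted p = 0.000654 by edgeR). It was 40.4-fold lower than in Tac146 (interval from 32.5, adjusted p = 0.000298 by edgeR). Its receptor Xcr1 had 19 counts in B6 against 6 in Tac111 and 39 in Tac146 and was not tested; per library it stood at 0.139 to 0.265, 0.0291 to 0.0962 and 0.265 to 0.375 CPM. The Tac111 values were the lowest. Without a filter on low counts, Xcr1 was lower in Tac111 than in Tac146 (log2 fold change -2.23, adjusted p = 0.038 by edgeR), as it was when B6 replicate 2, B6 replicate 3 or Tac111 replicate 1 was left out and it entered the test (0.0357 to 0.0475). A transcript on the other strand overlaps 18.7% of the Xcl1 exons.

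Cxcr6 (chr9:123806475-123811760), which holds resident lymphocytes in tissue, stood at 1.98, 1.01 and 1.49 CPM in B6 against 0.0641, 0.144 and 0.0582 in Tac111, and 0.929, 0.461 and 1.52 in Tac146. All 3 Tac111 libraries lay below the other 6. It fell by 4.08 on the log2 scale against B6 (SE 0.58, adjusted p = 0.00347 by edgeR) and by 3.47 against Tac146 (SE 0.60, adjusted p = 0.00833 by edgeR), the latter lost without Tac111 replicate 3 (adjusted p = 0.0501). Its transmembrane ligand Cxcl16 (chr11:70453983-70459984) stood at 14.2, 14.1 and 12.4 CPM in B6 against 9.33, 9.57 and 9.89 in Tac111, and 17.0, 15.0 and 15.5 in Tac146. The replicates of each strain lay close together and the strains did not overlap, but the fall was small. It was -0.50 against B6 (SE 0.10, adjusted p = 0.0173 by edgeR), lost without B6 replicate 1 or 2 or Tac111 replicate 1 or 2 (adjusted p of 0.0609 to 0.0777), and -0.72 against Tac146 (SE 0.10, adjusted p = 0.00181 by edgeR). Zmynd15 on the other strand overlaps 18.3% of the Cxcl16 exons, and the sources used here do not give the strand setting of the counting.

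**Figure D3:**
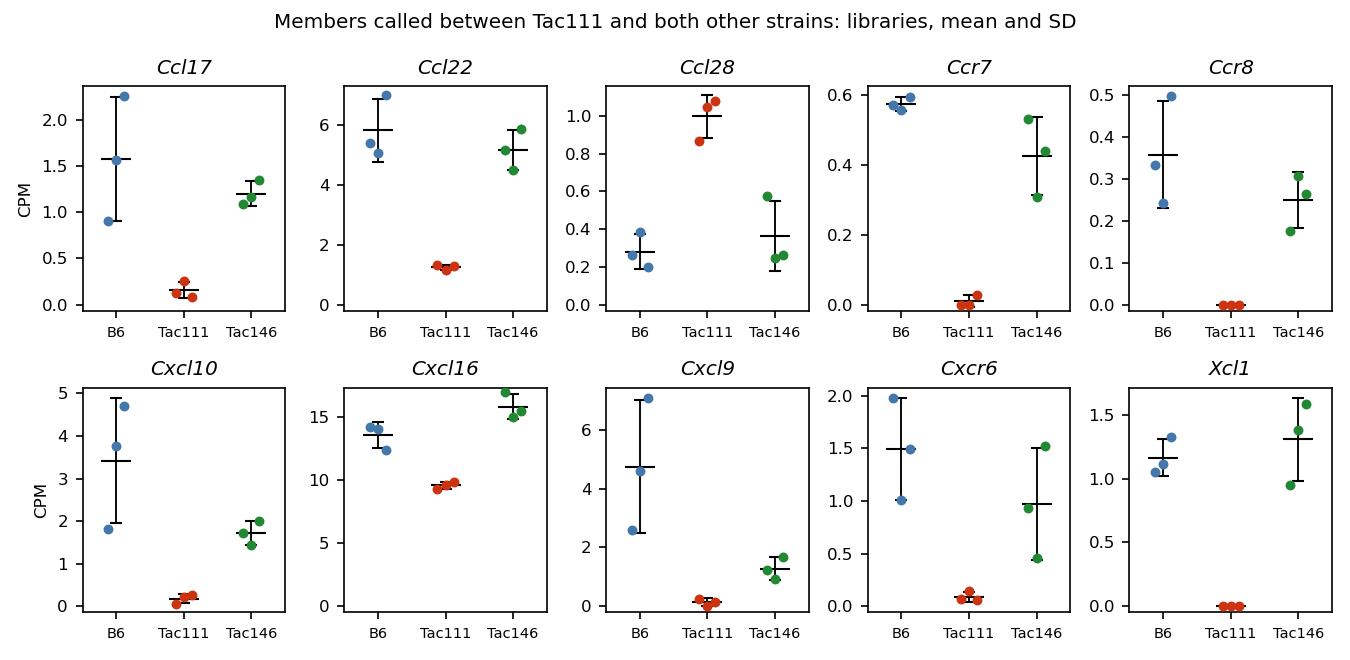
CPM of the 10 genes that passed the test between Tac111 and both other strains, 1 point per library with the mean and SD of each strain (n = 3), each panel on its own axis from 0. Tac111 lies below B6 and Tac146 in 9 panels and above them in the Ccl28 panel, and Xcl1 and Ccr8 lie at 0 in Tac111.

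Ccl17 and Ccl22, ligands of Ccr4 made mainly by dendritic cells and macrophages, both fell in Tac111. Ccl22 (chr8:94745590-94751699) stood at 5.39, 5.08 and 7.02 CPM in B6 against 1.31, 1.16 and 1.28 in Tac111, and 5.18, 4.51 and 5.86 in Tac146. Tac111 lay far below the other strains, which overlapped. The fall was -2.22 (SE 0.18, adjusted p = 0.00015 by edgeR) against B6 and -2.05 (SE 0.18, adjusted p = 0.000177 by edgeR) against Tac146. Ccl17 (chr8:94810453-94812036) stood at 0.907, 1.57 and 2.25 CPM in B6 against 0.128, 0.253 and 0.0872 in Tac111, and 1.08, 1.17 and 1.34 in Tac146. Again all Tac111 libraries were lowest. It fell by 3.33 on the log2 scale (SE 0.45, adjusted p = 0.00261 by edgeR) and 2.96 (SE 0.46, adjusted p = 0.00447 by edgeR) in the same order. Both genes kept their calls in all 16 alternatives run.

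Cx3cl1 (chr8:94772009-94782427), a membrane-bound ligand of endothelium and epithelium, lies between Ccl22 and Ccl17 within 66.4 kb. It did not pass the test in any comparison, at 11.7 ± 1.40 CPM in B6 against 9.31 ± 1.30 in Tac111 and 10.7 ± 1.24 in Tac146 (SD, n = 3; smallest edgeR adjusted p 0.204). Its receptor Cx3cr1, carried by monocytes and some macrophages, also did not pass, at 1.34 ± 0.368, 0.717 ± 0.409 and 1.09 ± 0.371 CPM in that order. Ccr4, the receptor of Ccl17 and Ccl22, stood at 1.39 to 1.70 CPM in B6 against 1.22 to 1.63 in Tac111 and 1.17 to 2.70 in Tac146. Strains overlapped, and no comparison passed (smallest edgeR adjusted p 0.286).

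Receptors of lymphocytes and dendritic cells with low counts followed, led by Ccr7, which guides dendritic cells and naive T cells to lymph nodes. Ccr7 (chr11:99144196-99155077) stood at 0.573, 0.557 and 0.596 CPM in B6 and 0.531, 0.307 and 0.441 in Tac146. Tac111 held 1 count in all, against 58 in B6 and 54 in Tac146. The ratio of B6 to Tac111 was 53.7 (95% counting interval 9.26 to 2155, adjusted p = 0.00141 by edgeR) and that of Tac146 to Tac111 was 40.9 (7.04 to 1645, adjusted p = 0.00205 by edgeR). Its ligands did not pass the test: Ccl19 had edgeR adjusted p of 0.936 and 0.144 in Tac111 against B6 and Tac146, and Ccl21a had 0.502 and 0.192.

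Ccr8 (chr9:120092114-120094906), found on regulatory and skin-homing T cells and on some innate lymphoid cells, stood at 0.334, 0.243 and 0.497 CPM in B6 and 0.177, 0.307 and 0.265 in Tac146, and had 0 counts in Tac111. With 3 counts over the group as the floor, it was 11.1-fold lower than in B6 (95% counting interval from 8.57, adjusted p = 0.00863 by edgeR). It was 7.58-fold lower than in Tac146 (interval from 5.79, adjusted p = 0.0136 by edgeR). Its ligand Ccl1 had 10 counts in B6 against 1 in Tac111 and 27 in Tac146 and was not tested. The Tac146 to Tac111 ratio of Ccl1 was 20.4 (95% counting interval 3.37 to 837). Ccr6, a receptor of Th17 cells, B cells and group 3 innate lymphoid cells, had 0 counts in Tac111 and 25 in each of the other strains. With the same floor it fell 7.71-fold against B6 and 6.31-fold against Tac146 (95% counting intervals from 5.82 and 4.76). It had too few counts to enter the edgeR test with its filter; DESeq2 called it against B6 (adjusted p = 0.00473), and edgeR without a filter called it against B6 and Tac146 (0.00757 and 0.00734). It entered the edgeR test and passed against B6 without B6 replicate 2 (adjusted p = 0.0415) and against Tac146 without B6 replicate 2, B6 replicate 3 or Tac111 replicate 1 (0.0374 to 0.0492). Ccl20, the ligand of Ccr6, did not pass (smallest edgeR adjusted p 0.0952).

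Ccl28, a ligand of Ccr10 and Ccr3 made by mucosal epithelium and glands, was the only member higher in Tac111 in both comparisons. Ccl28 (chr13:119623819-119654359) stood at 0.263, 0.383 and 0.199 CPM in B6 against 0.866, 1.05 and 1.08 in Tac111, and 0.575, 0.246 and 0.265 in Tac146. All Tac111 libraries lay above the other 6. It rose by 1.82 on the log2 scale against B6 (SE 0.39, adjusted p = 0.0264 by edgeR) and by 1.43 against Tac146 (SE 0.36, adjusted p = 0.0392 by edgeR). The first edgeR call was lost when any B6 or Tac111 library was left out (adjusted p of 0.0557 to 0.114), and the second when any library but Tac146 replicate 2 was (0.051 to 0.125) or with only the 6 libraries compared (0.0692).

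Ccl27a, the skin keratinocyte ligand of Ccr10, passed only in Tac111 against Tac146. Ccl27a (chr4:41769467-41774247) stood at 10.7, 7.34 and 6.66 CPM in B6 against 5.80, 4.84 and 7.27 in Tac111, and 13.0, 9.18 and 10.5 in Tac146. Tac111 and Tac146 did not overlap, and B6 overlapped both. It was lower in Tac111 than in Tac146 (log2 fold change -0.87, SE 0.21, adjusted p = 0.0358 by edgeR), a call lost when any library but B6 replicates 1 and 3 was left out (adjusted p of 0.0521 to 0.0948). The near copy Ccl27b had 0 counts in Tac111, but also 0 in B6 replicate 1 and Tac146 replicate 4, against 1.01 and 1.13 CPM in the other B6 libraries and 0.641 and 3.84 in the other Tac146 libraries. It did not pass by edgeR with its filter (adjusted p = 0.26 and 0.109), and without a filter on low counts it was lower in Tac111 than in Tac146 (0.0125). Since 61.4% of its 50-base words occur in Ccl27a, their sum is given too: 8.94 ± 1.53 CPM in B6 against 5.97 ± 1.22 in Tac111 and 12.4 ± 1.64 in Tac146 (SD, n = 3). Ccr10 had 13, 7 and 18 counts in B6, Tac111 and Tac146 and was not tested. Ccl25, a ligand better known from thymus and small intestine, and its receptor Ccr9 did not pass (smallest edgeR adjusted p 0.536 and 0.205).

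Inflammatory CC ligands gave 1 call in each comparison of Tac111. Of the 13 ligands of this list, 8 were tested, with 1 lower in Tac111 against B6 (Ccl5), 1 against Tac146 (Ccl8) and none higher in either. Over all genes, 2.8% and 6.27% were lower in these comparisons. Ccl5, a ligand stored by NK cells and effector T cells, stood at 0.406, 0.313 and 0.497 CPM in B6 against 0.0641, 0.144 and 0.0291 in Tac111, and 0.376, 0.184 and 0.331 in Tac146. Tac111 was lowest throughout. The log2 fold change was -2.37 against B6 (SE 0.54, adjusted p = 0.0373 by edgeR) and -1.96 against Tac146 (SE 0.55, adjusted p = 0.0518 by edgeR). The edgeR call against B6 was lost when any B6 or Tac111 library was left out (adjusted p of 0.0506 to 0.142).

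Ccl8, a ligand made by dermal macrophages, stood at 9.10, 7.83 and 8.28 CPM in B6 against 5.03, 4.26 and 5.03 in Tac111, and 15.7, 10.9 and 5.12 in Tac146. Tac146 spread widely, from just above the Tac111 values in replicate 4 to the highest value of all in replicate 2. Its call against Tac146 (log2 fold change -1.14, SE 0.32, adjusted p = 0.0495 by edgeR) was held among the left-out libraries only without Tac146 replicate 4, and was lost without any other (adjusted p of 0.062 to 0.138), with upper-quartile factors (0.0582), a filter of 1 CPM (0.0509) or only the 6 libraries (0.0946). Against B6 its log2 fold change was -0.81 (SE 0.32, adjusted p = 0.18 by edgeR), which passed without Tac146 replicate 4 (0.014) or with only the 6 libraries (0.00769). Ccl2 and Ccl7, the monocyte chemoattractants of Ccr2, were likewise highest in Tac146 replicate 2, at 3.50 and 2.77 CPM, against 0.86 to 1.24 and 0.921 to 0.948 in the other Tac146 libraries. Neither passed by edgeR with its filter (smallest adjusted p 0.218 and 0.0847). Ccl7 was lower in Tac111 than in Tac146 by DESeq2 (log2 fold change -1.62, adjusted p = 0.0338) and by edgeR without a filter on low counts (0.0251). Ccl6, Ccl9 and Ccl11, the other abundant ligands of this list, did not pass with that filter either (smallest edgeR adjusted p 0.0707, 0.331 and 0.166). Without Tac146 replicate 4, Ccl6 and Ccl11 were lower in Tac111 than in Tac146 (log2 fold change -0.66 and -0.63, adjusted p = 0.0336 and 0.0186 by edgeR), as Ccl6 was by DESeq2 (0.0319) and by edgeR without a filter on low counts (0.0276).

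Ccr2 (chr9:124101950-124113557), the receptor that brings monocytes out of the bone marrow, stood at 8.97, 8.45 and 8.68 CPM in B6 against 7.85, 6.75 and 6.63 in Tac111, and 11.9, 11.1 and 9.21 in Tac146. The strains did not overlap, with Tac111 lowest and Tac146 highest. Its log2 fold change in Tac111 against Tac146 was -0.60 (SE 0.12, adjusted p = 0.0199 by edgeR), lost without Tac111 replicate 2 or 3 or Tac146 replicate 3 (0.0645 to 0.0729) or with only the 6 libraries (0.0561). Ccr1 (chr9:123962124-123968692), a receptor of Ccl3, Ccl5 and related ligands on myeloid cells, stood at 1.00, 1.25 and 1.49 CPM in B6 against 0.737, 0.433 and 0.378 in Tac111, and 1.44, 0.983 and 1.34 in Tac146. Tac111 lay below both other strains, with a log2 fold change of -1.29 against Tac146 (SE 0.31, adjusted p = 0.0327 by edgeR) and -1.26 against B6 (SE 0.31, adjusted p = 0.0535 by edgeR). The call against Tac146 was lost without B6 replicate 2, Tac111 replicate 2 or 3, or Tac146 replicate 2 or 4 (0.0546 to 0.118), and with only the 6 libraries (0.0651); the value against B6 passed without Tac111 replicate 1 (0.0378) or Tac146 replicate 4 (0.0496), by DESeq2 (0.0192) and by edgeR without a filter on low counts (0.0249).

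Neutrophil chemokines were close to the limit of these libraries. None of the 5 ligands with the ELR motif (Cxcl1, Cxcl2, Cxcl3, Cxcl5 and Cxcl15) had enough counts to be tested, and they summed to 0.383 to 0.696 CPM in B6 against 0.289 to 0.542 in Tac111 and 0.575 to 0.799 in Tac146. Their receptor Cxcr2 (chr1:74153989-74161246) stood at 2.94, 3.03 and 3.91 CPM in B6 against 2.08, 2.75 and 1.60 in Tac111, and 3.10, 5.62 and 5.27 in Tac146. Tac111 lay below the other strains in every library, and Tac146 replicates 3 and 4 were highest. It was lower in Tac111 than in Tac146 (log2 fold change -1.12, SE 0.27, adjusted p = 0.032 by edgeR), a call lost without B6 replicate 2, Tac111 replicate 1 or 3, or Tac146 replicate 3 or 4 (0.0522 to 0.115), or with only the 6 libraries (0.0652). The 9 neutrophil markers summed to 15.0 to 29.8 CPM in B6 against 12.8 to 13.8 in Tac111 and 41.9 to 162.9 in Tac146, a difference carried by S100a8 and S100a9, calcium-binding proteins that inflamed epithelium also makes. These 2 genes, singled out after their values were seen, summed to 2.64 to 20.2, 3.75 to 5.35 and 30.9 to 154.1 CPM in the same order, and both were lower in Tac111 than in Tac146 (adjusted p = 0.0236 and 0.00701 by edgeR). The other 7 markers, mostly Itgam, summed to 9.44 to 12.4, 8.49 to 9.07 and 8.73 to 11.5 CPM. Of these 7, Csf3r, Itgam and Mmp8 were tested and did not pass in any comparison, and Ly6g had no count in any library. The part of these markers in the Cxcr2 result was not tested.

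The 4 atypical receptors did not pass in any comparison. Ackr3, which removes Cxcl12, stood at 30.7 ± 4.63 CPM in B6 against 25.4 ± 0.501 in Tac111 and 30.0 ± 2.98 in Tac146 (SD, n = 3). Ackr4, which removes Ccl19, Ccl21 and Ccl25, stood at 14.1 ± 2.61, 11.9 ± 1.99 and 15.1 ± 3.73 CPM in that order. Ackr2, a lymphatic scavenger of inflammatory CC ligands, stood at 5.51 ± 1.16, 3.48 ± 0.483 and 4.14 ± 1.12 CPM. Ackr1, the Duffy receptor of venules, stood at 5.35 ± 1.03, 5.16 ± 0.697 and 4.68 ± 0.266 CPM, and 25.7% of its exons overlap Cadm3 on the same strand. The smallest edgeR adjusted p of the 4 was 0.139 (Ackr2, Tac111 against B6, log2 fold change -0.66, SE 0.23).

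The remaining genes carried few or no counts. Ccl19-ps3, Ccl26, Ccr1l1 and Cxcl15 had no count in any library, and 18 others had 2 to 75 counts in all and did not enter the test. Of these, Ccr3, the eosinophil receptor, had 3 counts in B6 against 1 in Tac111 and 32 in Tac146, a Tac146 to Tac111 ratio of 24.2 (95% counting interval 4.05 to 987). Ccl21b had no count outside Tac111, whose libraries held 0, 4 and 16. Without a filter on low counts, Ccr3 and Ccl1 were lower (adjusted p = 0.0173 and 0.0202 by edgeR) and Ccl21b higher (0.0384) in Tac111 than in Tac146.

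Other genes of chemokine pathways were described by lists, for which the same test counts are given. Over all genes, 2.8% were lower and 1.02% higher in Tac111 against B6. Against Tac146 these shares were 6.27% and 2.62%. Of 27 genes that carry the receptor signal, 5 were lower and none higher in Tac111 against B6, 8 lower and none higher against Tac146, and none passed in Tac146 against B6. Dock2, which drives lymphocyte migration through Rac, fell by 1.15 on the log2 scale against B6 (SE 0.19, adjusted p = 0.00916 by edgeR), and Rac2, Vav1, Pik3r5 and Rgs1 fell by 0.90, 1.17, 1.25 and 1.55. Against Tac146 the lower genes were Dock2, Vav1, Pik3r5, Rgs1, Elmo1, Fermt3, Plcb2 and Plcb3, by 0.41 to 1.46. The median of the list was -0.21 against B6 and -0.31 against Tac146, beside 0.02 for all genes in each. Of 14 tested adhesion and homing genes, 6 were lower in each comparison of Tac111 and none higher. Itgae, the integrin chain by which lymphocytes and some dendritic cells hold to epithelium, fell by 4.46 against B6 (SE 0.35, adjusted p = 0.000107 by edgeR), and its partner Itgb7 by 1.08, with Pecam1, Selplg, Itgal and Itgb2 falling by 0.73, 1.15, 0.94 and 0.77. The same 6 genes passed against Tac146.

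Of 11 interferon gamma genes, 3 were lower in Tac111 against B6 (among them Il18r1 and Irf1) and 2 against Tac146 (Il18r1 and Jak1), with none higher. For this and the next lists, the shares of all genes that were lower were 2.8% and 6.27%. Among 13 NF-kappaB and IL-17 genes, 2 were lower in Tac111 against B6 (Nfkbia and Nfkbiz) and 4 against Tac146 (these and Nfkb1 and Tnfaip3). Nfkbiz, a co-factor induced by IL-17 and IL-1, was also higher in Tac146 than in B6 (log2 fold change 0.77, SE 0.13, adjusted p = 0.0389 by edgeR), the only gene of the pathway lists to pass in that comparison. Il17a, Il17f and Il22 had too few counts to be tested: 2, 3 and 2 in B6, 0 in Tac111, and 1, 11 and 14 in Tac146. Of 8 type 2 genes, Retnla was lower in Tac111 in both comparisons and Il13ra1 against Tac146. Of 11 genes that cut or hold chemokines, Mmp9, a protease that cuts several of them, was lower in both (-1.33 and -1.55 on the log2 scale), and Adam10 and Adam17, which shed Cxcl16 and Cx3cl1, were lower against Tac146 by 0.40 and 0.39, as was Ndst1 by 0.37. Among 9 chemokine-like genes outside the symbol rule, Cd74, a receptor of Mif, was lower in both (-0.99 and -1.19). The medians of the lists from interferon gamma onward ran from -0.43 to -0.10 against B6. Against Tac146 they ran from -0.34 to 0.01, beside 0.02 for all genes in each comparison.

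Some cell type marker lists also differed between the strains, and others did not. Over all genes, 2.8% were lower in Tac111 against B6 and 6.27% against Tac146. The 14 ILC1 and NK cell markers summed to 24.6 to 30.9 CPM in B6 against 7.24 to 9.39 in Tac111 and 26.6 to 32.6 across Tac146 libraries, with 8 of the 10 tested lower in Tac111 in each comparison and Ncr1, Gzma, Gzmb, Gzmc, Prf1, Eomes and Nkg7 at 0 there. Itga1, which other cells also carry, made up 5.35 to 7.73 CPM of the Tac111 sums, and the other 13 markers summed to 1.16 to 1.89 CPM there, against 14.5 to 20.8 CPM over the 6 libraries of the other strains. The 14 T cell markers summed to 23.8 to 29.8 CPM in B6 against 16.7 to 19.5 in Tac111 and 17.8 to 19.7 across Tac146 libraries, and without Cd5 and Trbc2 to 9.71 to 14.4, 2.18 to 2.59 and 4.28 to 4.91. Of the 12 tested, 5 were lower in Tac146 than in B6, 6 in Tac111 than in B6 and 4 in Tac111 than in Tac146. The shares over all genes were 0.109%, 2.8% and 6.27%. Xcl1, Cxcr6 and Ccr8 overlapped between Tac146 and B6, and Ccr7 lay lower in every Tac146 library than in B6 without passing the test (adjusted p = 0.808 by edgeR). The 8 dendritic and Langerhans cell markers, which include Xcr1, summed to 62.2 to 77.9, 58.1 to 65.6 and 69.3 to 84.9 CPM in B6, Tac111 and Tac146. Most of this was Epcam, a gene of epithelium as well as Langerhans cells, at 39.8 to 57.0, 48.9 to 55.5 and 42.0 to 61.9 CPM. Without it the other 7 summed to 19.4 to 22.4, 9.00 to 10.9 and 23.0 to 27.4 CPM, with all Tac111 libraries lowest. The genes left out of these sums were chosen after their values were seen. Of the 6 tested, Cd207 and Itgax, markers of Langerhans and dendritic cells, fell in Tac111 by 1.94 and 1.81 against B6 and by 2.38 and 2.18 against Tac146. The 11 macrophage markers summed to 312.1 to 378.1, 226.2 to 277.7 and 192.5 to 403.6 CPM in that order, with none past the threshold in Tac111 against B6 and Adgre1 and Csf1r lower in Tac111 against Tac146 (adjusted p = 0.0498 and 0.0424 by edgeR). The 9 blood endothelium markers summed to 201.3 to 258.8, 133.7 to 146.3 and 201.7 to 217.5 CPM, with 5 lower in Tac111 against B6 and 4 against Tac146. The 7 ILC2 and ILC3 markers summed to 252.5 to 263.9, 194.1 to 207.1 and 253.1 to 261.9 CPM, with 2 of 6 tested lower in Tac111 in each comparison. Of 8 eosinophil markers only Ear2 was tested, and it was lower in Tac111 in both comparisons. The other markers of that list, which include Ccr3, had too few counts, and Epx had none in any library. Of 8 squamous epithelium markers, 1 was lower in Tac111 against Tac146. No tested marker of mast cells, B and plasma cells, fibroblasts, lymphatic endothelium or skeletal muscle passed in either comparison of Tac111. The lymphatic endothelium list includes Ccl21a, and of 8 B and plasma cell markers only Ighm was tested. The part of these cell types in the chemokine and receptor results was not tested.

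**Figure D4:**
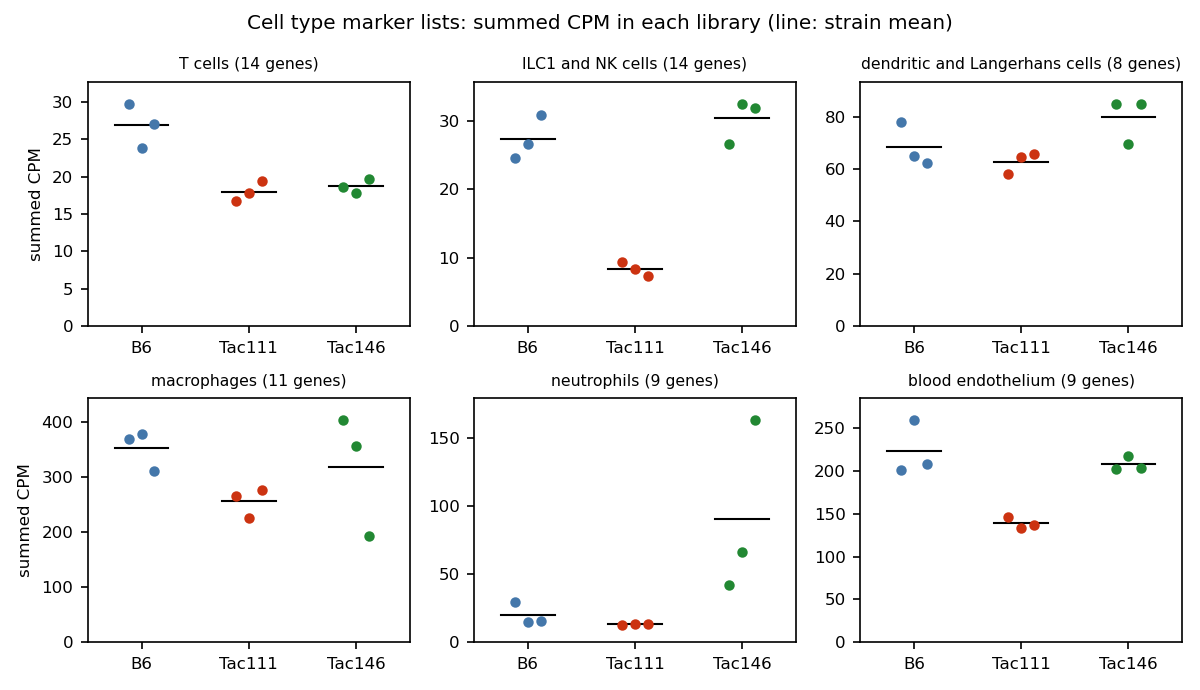
Summed CPM of 6 cell type marker lists in each library, with a line at the mean of each strain and axes from 0. The ILC1 and NK cell sum is lowest in the 3 Tac111 libraries (7.24 to 9.39 CPM), the T cell sum is low in both Tac strains, and Tac146 replicate 4 has the highest neutrophil sum (162.9 CPM, mostly S100a8 and S100a9).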

How the data were processed

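Per the labels' protocols, 9 labial mucosa libraries were made from polyadenylated RNA with a stranded kit. The authors deposited expected counts per gene symbol (estimated counts that need not be whole), per the file headers, made with STAR, RSEM and GRCm38, per the submitters' processing notes. The sources used here give no versions, annotation or strand setting, so reads may be shared between overlapping genes or near-identical copies.

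Lines sharing a symbol (107 symbols) were summed and the expected counts rounded. The quasi-likelihood test of edgeR 4.0.16 (R 4.3.3), with TMM factors and filterByExpr, used 1 fit of all 9 libraries (a mean for each strain, 6 residual degrees of freedom). Benjamini-Hochberg adjustment ran over the 16523 genes tested, with a threshold of 0.05. The SE is approximate, from the F statistic. The test was checked on simulated counts. For a gene at 0, folds take 3 counts over the group as the floor and are not lower bounds. The 95% counting intervals are exact conditional ones and cover counting error only. For such a gene they have no upper end. Replicates differed by more than sampling noise (chi-square per degree of freedom 15.7 to 93.7). Symbols were matched to GENCODE (GRCm38) for positions and exon lengths. All 63 matched.

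Members were named if they passed in a comparison, were among the 12 highest per kb, or belonged to the Cxcr3, Xcr1 and Cx3cr1 axes or the atypical receptors. Of each pathway list, genes that passed were named, with up to 4 by smallest adjusted p. Other members named for the same receptor were chosen after their values were seen. Values of 1 member and 1 pathway gene are not reported here. The members and lists were chosen with earlier results of these data known. Alternatives were DESeq2 1.42.0, factors by upper quartile or median ratio, fits without a filter or with 1 CPM in 3 libraries, fits of the 6 libraries compared or with a replicate block, and leaving out each library. Tables and figures used Python 3.11.15, pandas 2.3.3, scipy 1.17.1 and matplotlib 3.10.9.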

Additional observations from a re-analysis of the deposited data

How the results depend on the processing

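Counts of members past the threshold moved with the setting. In Tac111 against B6, 11 of 41 members passed, and 7 of 34 with a filter of 1 CPM in 3 libraries, which tests fewer genes. With 1 library left out, 7 to 13 passed. Over all genes, 3.81%, 3.74% and 1.75% to 5.72% were called in that order. In Tac111 against Tac146, 15 of 41 passed, and 24 of 59 without a filter on low counts. With only the 6 libraries compared 9 of 37 passed, and with 1 library left out 7 to 15. Here the shares of all genes called were 8.89%, 7.86%, 3.92% and 2.81% to 10.9%. In Tac146 against B6, 0 passed, and 1 (Cxcl9) by DESeq2 or without a filter on low counts. The causes were not tested.

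Replicate numbers are shared by the strains in part, since Tac146 has a replicate 4 and no replicate 1. Same-numbered libraries did not deviate together (correlations of -0.09 to 0.21), so the numbers are not treated as pairs. A fit with the replicate block called 12, 0 and 11 members in Tac111 against B6, Tac146 against B6 and Tac111 against Tac146. In that fit Tac146 replicate 4 is alone in its block and adds nothing to the strain differences. With the block, the calls of Ccl5 against B6 (adjusted p = 0.0641 by edgeR) and of Cxcl9, Ccl28, Ccr1, Ccl27a and Cxcr2 against Tac146 (0.071, 0.113, 0.142, 0.0702 and 0.155) in Tac111 were lost, and Ccl8 against B6 (0.0249) and Ccl27b against B6 and Tac146 (0.029 and 0.0172) were called. Libraries that resembled their own number best were 0, 2 and 2 of 6 in these pairs of strains. In the pairs with Tac146, replicate 1 of the other strain and Tac146 replicate 4 had no same-numbered partner. Over named members and settings, 1287 of 1368 values stayed on their side of the threshold, 67 lost a call, 14 gained one, and no called value changed sign. Of the values that stayed, 26 without a call changed sign. Another 24 had no test because the setting's filter left the gene out. Ccl17, Ccl22, Ccr7, Ccr8, Cxcl10 and Xcl1 kept both calls in every alternative that tested them. With at most 75 counts in 9 libraries, 22 members could not be tested with the filter.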
